A study of Mus musculus with 16 samples.

Results

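Toll-like receptors are membrane proteins with which microglia and other innate immune cells sense microbial products and debris of damaged cells. On ligand binding, most of them recruit the adaptor Myd88, and kinases downstream of it activate NF-kB and induce cytokines and chemokines, while Tlr3 signals through a different adaptor. In the brain, most of these receptors are known mainly from microglia. The 8 genes described here are the surface receptors Tlr1, Tlr2 and Tlr4, the endosomal receptors Tlr3 and Tlr7, the lipopolysaccharide co-receptor Cd14, the adaptor Myd88, and Ly86, which encodes MD-1, a partner of the Toll-like receptor homologue Cd180. They were taken as a list of names, and every probe whose accession maps to one of these symbols was used. These were 9 probes of the 41174 on the array, for 8 of 18749 named genes. Tlr3 had 2 probes and the other genes 1 each. The probes of Tlr2, Tlr4 and Myd88 were printed in 10 spots per array, and those were averaged.

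RNA came from the corpus callosum, a white matter tract cut out of frozen brain sections, of young adult male C57BL/6 mice in the cuprizone (CPZ) model. CPZ is a copper chelator that kills oligodendrocytes when mixed into the chow, here at 0.2 to 0.4%. The groups were untreated mice on normal chow (n = 3), 2 weeks of CPZ (n = 3), 4 weeks of CPZ (n = 4), and 4 weeks of CPZ followed by regular diet (n = 6). The last group holds mice of 2 lengths of regular diet, which the labels do not separate, so it was used as labelled. No transgene or mutation is named for any group, and untreated mice were the controls. The labels do not say whether each array is 1 animal, so p-values measure only the spread between these arrays.

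The assignment of arrays to samples and a pair of arrays that stand apart bear on every value below. Each scanner file is recorded under a sample, and the authors' processed table has a column for each sample, but 14 of the 16 columns held the values of an array recorded elsewhere, 13 of them in another group. The columns of the processed table were followed here, and the recorded assignment is given as an alternative. The number that ends each scanner file's name equalled the place of the sample in the series for 16 of 16 arrays when assigned through the processed table and for 2 of 16 as recorded. The choice departs from the record and was made with values of these data known under both, and the labels do not settle it. Under the recorded assignment no probe was called in any comparison, and the 4-week difference of Tlr2, for example, was -0.29 (log2) in place of 3.01. Regular diet replicates 1 and 2 stood above all other arrays for 7 of the 8 genes, so the regular diet results of the 8 genes are given with and without them. The signal's 75th percentile ranged from 159.2 to 357.5 over the arrays, and 57.3 to 72.2% of probes were well above background. The tissue label was checked on 9 oligodendrocyte markers, of which all 9 were detected in every untreated array. They were lower under CPZ, by a median of -3.30 (log2) at 2 weeks and -2.75 at 4 weeks, with 0 of 9 called at either time by limma (9 and 8 of 9 at an unadjusted p under 0.05), and by -1.68 on regular diet, where 0 of 9 passed either threshold, or by -0.62 without replicates 1 and 2. The mean of these 9 markers was 5.79, 5.39 and 4.72 in the controls, while on regular diet it was 1.74, 1.76 and 2.58 on replicates 1 to 3 and 5.25, 5.31 and 5.93 on replicates 4 to 6, so the 6 arrays of that group did not agree in these markers. All 12 microglia markers were above background on all 16 arrays.

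RefSeq promoter sequences (assembly GRCm38.p6) were available for 5 of the 8 genes, in 6 windows since Tlr1 has 2 start sites. The 250 bases before the start site of 4 of these genes are shown because Tlr2 had the largest difference of the genes tested under CPZ, Ly86 was next to it at 4 weeks, Myd88 had the smallest, and Tlr1 is the partner of Tlr2. Capitals mark matches, on either strand, to any of 5 motifs.
Tlr1 chr5:64933559-64933808, minus strand: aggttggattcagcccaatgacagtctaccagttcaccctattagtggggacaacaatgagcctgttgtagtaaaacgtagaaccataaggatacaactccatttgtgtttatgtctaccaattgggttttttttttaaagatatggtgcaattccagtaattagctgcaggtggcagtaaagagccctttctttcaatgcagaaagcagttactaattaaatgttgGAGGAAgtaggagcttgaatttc
Tlr2 chr3:83841609-83841858, minus strand: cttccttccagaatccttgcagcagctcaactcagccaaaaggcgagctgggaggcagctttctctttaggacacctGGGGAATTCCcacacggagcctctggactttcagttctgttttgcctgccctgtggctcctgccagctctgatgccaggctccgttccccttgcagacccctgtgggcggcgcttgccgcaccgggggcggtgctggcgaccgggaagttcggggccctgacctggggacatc
Myd88 chr9:119340019-119340268, minus strand: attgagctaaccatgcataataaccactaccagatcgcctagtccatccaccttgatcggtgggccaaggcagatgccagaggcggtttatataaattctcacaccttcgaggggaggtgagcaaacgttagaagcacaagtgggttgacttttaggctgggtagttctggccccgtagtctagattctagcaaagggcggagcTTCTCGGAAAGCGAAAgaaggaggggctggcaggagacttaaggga
Ly86 chr13:37345095-37345344, plus strand: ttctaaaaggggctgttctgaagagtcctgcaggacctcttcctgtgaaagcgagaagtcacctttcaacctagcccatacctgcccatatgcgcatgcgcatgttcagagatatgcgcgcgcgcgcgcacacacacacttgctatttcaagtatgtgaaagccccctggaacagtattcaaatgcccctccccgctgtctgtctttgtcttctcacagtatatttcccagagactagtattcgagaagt
The motifs were the PU.1 core GAGGAA (in 23.3% of all 32851 promoter windows of this length), an NF-kB site GGGNNNTTCC (4.65%), the ISRE core GAAANNGAAA (2.98%), AP-1 as TGANTCA (6.75%) and GAS as TTCNNNGAA (7.02%). PU.1 is the lineage factor of microglia and macrophages, NF-kB and AP-1 act downstream of Toll-like receptors, and the ISRE and GAS are elements of interferon responses. The Tlr1 window shown held the PU.1 core, starting 23 bases before the start site. Its other start site had only a GAS match. Tlr2 held an NF-kB match starting 173 bases before the start site, and Tlr3, whose promoter is not shown, held another at 211 bases. In Myd88 the capitals are a GAS match and an ISRE core that overlap, starting 46 and 40 bases before the start site. Ly86 held none of the 5 motifs. No motif was in more than 2 of the 5 genes, and 4 of the 5 held at least 1, as did 38.1% of all windows. These are matches of letters only.

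All values below are log2 signals relative to the 75th percentile of the same array, so 0 is that percentile. They compare 1 gene between arrays, and the level of 1 probe says nothing about that of another. A gene was called changed if limma's Benjamini-Hochberg adjusted p over all tested probes was under 0.05 and the fold at least 2. Of the 8 genes, 6 passed the filter on dim probes among the untreated and CPZ arrays. Tlr1 and Tlr3 did not, because each was dim on at least 1 array of each of those groups, and their values there are descriptions. In whole tissue, more cells of a type and more RNA per cell cannot be told apart. All 8 passed once the regular diet arrays were included.

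**Figure D1:**
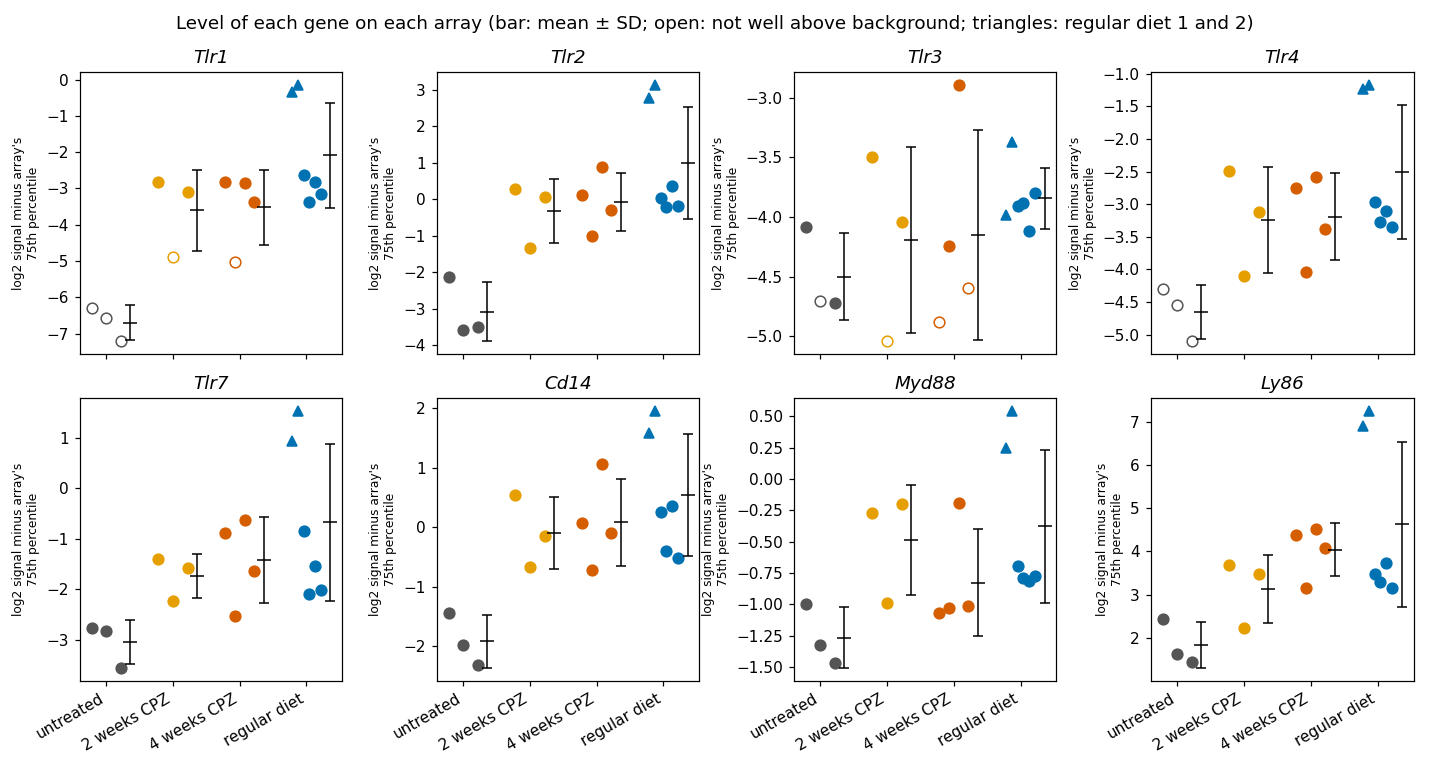
Level of each of the 8 genes (log2 signal minus the array's 75th percentile, vertical axis, scaled per panel) on every array by group, with mean ± SD as bars. Open symbols were not well above background, and triangles are regular diet replicates 1 and 2, which lie above the other arrays in every panel but that of Tlr3.

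The surface receptors were lowest in untreated mice. Tlr2, the receptor for bacterial lipoproteins, which pairs with Tlr1 or Tlr6, read -2.14, -3.58 and -3.51 in the controls. It read 0.28, -1.33 and 0.06 after 2 weeks of CPZ. After 4 weeks it read 0.12, -1.0, 0.89 and -0.29. Every CPZ array was above every control, and 2-week replicate 2 and 4-week replicate 2, which lay on the same slide, were the lowest of their groups. The difference was 2.75 ± 0.60 (SE) at 2 weeks, a 6.71-fold higher level (limma adjusted p = 0.106), and 3.01 ± 0.56 at 4 weeks, or 8.04-fold (limma adjusted p = 0.0812). Neither passed the test. Among the 6 regular diet arrays Tlr2 ranged from -0.20 to 3.14, where the 2 highest were replicates 1 and 2 at 2.78 and 3.14. It rose by 4.07 ± 0.77 against untreated (adjusted p = 0.0221), and by 3.09 ± 0.50 on the 4 arrays without replicates 1 and 2 (adjusted p = 0.0214).

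Tlr1 was not well above background on any control, at -6.29, -6.58 and -7.21. After 2 weeks of CPZ it read -2.82, -4.89 and -3.10, and after 4 weeks -2.82, -5.03, -2.85 and -3.38, so replicate 2 of each group, the only CPZ arrays where it was not above background, was again the lowest. No CPZ array overlapped the controls, but for the replicate 2 arrays this ranks values that were not above background on either side. The controls give only an upper bound. Against it the mean level was 2.12-fold higher at 2 weeks and 2.24-fold at 4 weeks, with no test. These means include the replicate 2 arrays, which were not above background, so neither fold is a strict lower limit. On regular diet Tlr1 was above background on 6 of 6 arrays, between -3.38 and -0.14. It was called there, with a fitted rise of 4.61 ± 0.77 (adjusted p = 0.0122) and a level at least 6.07-fold higher, and also without replicates 1 and 2 (3.69 ± 0.57, adjusted p = 0.0171). Tlr1 entered that test only through the regular diet arrays, where it is high, and it is not tested when every array has to be above background, so its call is a description. Tlr4, the receptor for lipopolysaccharide, followed. Its controls read -4.30, -4.55 and -5.10, none well above background. The 2-week arrays read -2.49, -4.10 and -3.12 and the 4-week arrays -2.76, -4.04, -2.58 and -3.38, all above background and above every control. The level was at least 2.65-fold higher at 2 weeks (adjusted p = 0.319). At 4 weeks it was at least 2.74-fold higher (adjusted p = 0.253), and neither difference was called. On regular diet it ranged from -3.35 to -1.17 and was at least 4.37-fold higher (adjusted p = 0.0996). Without replicates 1 and 2 the fitted difference was 1.48 ± 0.40 (adjusted p = 0.176). The Tlr4 probe has no row in the processed table used here, so its values rest on the scanner files alone. With the normexp background correction, which adds an offset to every signal, the 4-week difference of Tlr4 was 0.06 in place of 1.46 and the regular diet difference of Tlr1 was 0.53 in place of 4.61.

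The 2 endosomal receptors are Tlr7 and Tlr3. Tlr7, which binds single-stranded RNA, read -2.76, -2.82 and -3.55 in the controls, -1.39, -2.22 and -1.58 at 2 weeks, and -0.89, -2.52, -0.62 and -1.64 at 4 weeks. All CPZ arrays were above all controls, and 4-week replicate 2 came closest to them. The difference was 1.31 ± 0.48 at 2 weeks (adjusted p = 0.376), then 1.63 ± 0.45 at 4 weeks (adjusted p = 0.191). On regular diet Tlr7 ranged from -2.10 to 1.53 and differed by 2.37 ± 0.73 (adjusted p = 0.205), or by 1.42 ± 0.45 without replicates 1 and 2 (adjusted p = 0.326). Tlr3, which binds double-stranded RNA, was near the detection limit and its groups overlapped. Its brighter probe read -4.08, -4.70 and -4.72 in the controls, -3.50, -5.04 and -4.04 at 2 weeks, and -4.88, -4.24, -2.89 and -4.59 at 4 weeks. The difference of means was 0.31 at 2 weeks and 0.35 at 4 weeks, untested. On regular diet it ranged from -4.12 to -3.37, with 5 of 6 arrays above every control, and the difference was 0.66 ± 0.39 (adjusted p = 0.548), or 0.57 ± 0.44 without replicates 1 and 2 (adjusted p = 0.895). With normexp that difference was -0.31. Replicates 1 and 2 did not stand apart for Tlr3, at -3.98 and -3.37. Its second probe was dimmer and had a difference of means of -0.14 at 2 weeks, -0.24 at 4 weeks and 0.16 on regular diet, or 0 without replicates 1 and 2.

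Cd14, which hands lipopolysaccharide to Tlr4, read -1.44, -1.98 and -2.32 in the controls. It read 0.54, -0.67 and -0.15 at 2 weeks and 0.08, -0.71, 1.06 and -0.09 at 4 weeks. These groups did not overlap with the controls. The difference was 1.82 ± 0.47 at 2 weeks (adjusted p = 0.154), then 2.00 ± 0.44 at 4 weeks (adjusted p = 0.107), and neither was called. On regular diet Cd14 ranged from -0.51 to 1.95 and rose by 2.45 ± 0.53 (adjusted p = 0.049). That call was lost without replicates 1 and 2 (1.84 ± 0.41, adjusted p = 0.0785). Ly86 read 2.44, 1.63 and 1.44 in the controls, then 3.68, 2.22 and 3.47 at 2 weeks, where replicate 2 lay within the control range. At 4 weeks it read 4.39, 3.16, 4.53 and 4.09, all above the controls. The difference was 1.29 ± 0.48 at 2 weeks (adjusted p = 0.395), then 2.21 ± 0.45 at 4 weeks, a 4.62-fold higher level (adjusted p = 0.0927). On regular diet the 4 arrays other than replicates 1 and 2 lay between 3.15 and 3.72, and replicates 1 and 2 read 6.91 and 7.25. The difference was 2.80 ± 0.86 over all 6 (adjusted p = 0.208) and 1.57 ± 0.40 over the 4 (adjusted p = 0.145).

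Myd88, the adaptor shared by most of the receptors, differed least among the tested genes at 2 and 4 weeks. The controls read -1.0, -1.32 and -1.47. The 2-week arrays read -0.27, -0.99 and -0.20, above every control though replicate 2 only just. At 4 weeks replicates 1, 2 and 4 read -1.07, -1.03 and -1.01, inside the control range, and replicate 3 read -0.19. The difference was 0.78 ± 0.31 at 2 weeks (adjusted p = 0.439), then 0.44 ± 0.29 at 4 weeks (adjusted p = 0.723). On regular diet the 4 arrays other than replicates 1 and 2 were close together, between -0.81 and -0.69, and replicates 1 and 2 read 0.25 and 0.54. All 6 were above every control, with a difference of 0.89 ± 0.33 (adjusted p = 0.353), or 0.50 ± 0.25 without replicates 1 and 2 (adjusted p = 0.885).

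**Figure D2:**
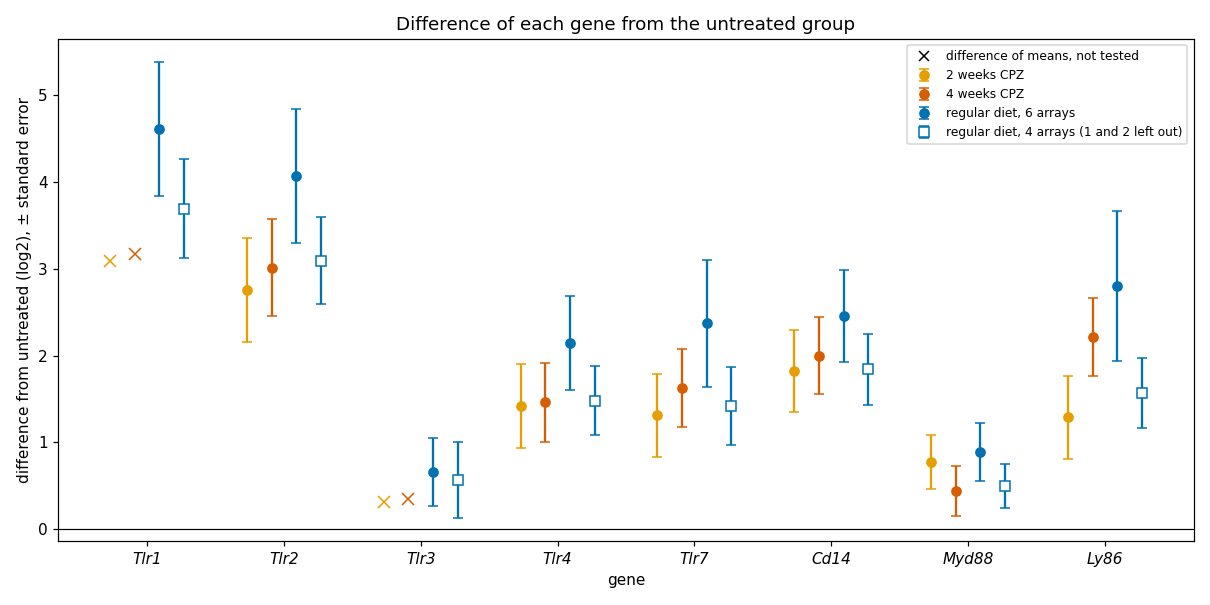
Difference of each gene from the untreated group (log2, vertical axis) with its standard error, at 2 weeks of CPZ, 4 weeks of CPZ and on regular diet with all 6 arrays or with 4. Crosses are untested differences of means. Among the genes tested under CPZ, Tlr2 lies highest and Myd88 lowest, and the differences of Tlr1 and Tlr4 are against controls below background.

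Counted together, 6 of 6 tested genes were higher at 2 weeks of CPZ, with a median difference of 1.37 against 0.034 over all 27503 probes. None was called, where 0.193% of all probes were, and 6 of 6 had an unadjusted limma p under 0.05, as did 9.34% of all probes. In 5 of the 6, every 2-week array was above every control, which held for 8.29% of all probes. At 4 weeks the median was 1.81 against -0.031, none was called (0.164% of all probes), and 5 of 6 had an unadjusted p under 0.05, as did 10.1% of all probes. In 5 of the 6, every array was above every control, against 5.25% of all probes. Both CPZ comparisons share their 3 controls. On regular diet 3 of 8 were called, Tlr1, Tlr2 and Cd14, where 0.799% of all probes were, and 7 of 8 had every array above every control, against 4.88% of all probes. The median was 2.41 against -0.026, and 1.53 without replicates 1 and 2, when 2 of 8, Tlr1 and Tlr2, were called beside 0.70% of all probes. These medians and counts cover only genes that passed the filter on dim probes and are descriptions: Tlr1 and Tlr3 passed it only through the regular diet arrays, and Tlr4 was above background in no control. The 5 genes above background on all 16 arrays, Tlr2, Tlr7, Cd14, Myd88 and Ly86, had medians of 1.31, 2.00 and 2.45 at 2 weeks, at 4 weeks and on regular diet, and 4, 4 and 5 of them had every array above every control, against 7.48, 5.53 and 4.35% of the 21974 such probes. The 3 calls also rest on the controls. Without untreated replicate 2, 0 of 8 passed beside 0.237% of all probes, with Tlr1 at 4.67 (adjusted p = 0.0685), Tlr2 at 3.82 (adjusted p = 0.141) and Cd14 at 2.42 (adjusted p = 0.206). Without untreated replicate 3, 0 of 8 passed beside 0.018% of all probes, with Tlr1 at 4.35 (adjusted p = 0.103), Tlr2 at 3.86 (adjusted p = 0.153) and Cd14 at 2.25 (adjusted p = 0.262). The test named in the study's methods and limma with the replicate number as a block each left 0 of 8, beside 13 and 24 called probes in all.

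The 4-week result depended on how the slides were handled. The 16 arrays lay on 4 slides of 4, and untreated arrays were on 3 of them. With the slide as a fixed block, 5 of 6 genes were called at 4 weeks, namely Tlr2, Tlr4, Tlr7, Cd14 and Ly86 (that of Tlr4, whose controls are all below background, is a description), with adjusted p between 0.0144 for Tlr2 and 0.040 for Tlr7, beside 477 probes in all in place of 45. With the slide as a random block 3 were called, Tlr2, Cd14 and Ly86, and at 2 weeks Tlr2 was called (adjusted p = 0.0463), beside 417 probes in all at 4 weeks and 311 at 2 weeks in place of 45 and 53. The slide with no untreated array held 2-week replicate 2, 4-week replicates 2 and 4 and regular diet replicate 3, so differences within a slide leave these out. The 2-week arrays that share a slide with a control all share untreated replicate 1, the highest control for each of the 8 genes. The 4-week ones are set against untreated replicates 2 and 3, so the 2 times cannot be compared in this way. Against the control of the same slide, Tlr2 was higher by 2.20 and 2.42 on the 2 arrays at 2 weeks that share a slide with one, and by 3.62 and 4.48 on the 2 such arrays at 4 weeks. For Ly86 these differences were 1.03 and 1.24, then 2.91 and 2.95, and for Cd14 1.29 and 1.97, then 2.40 and 3.04. Tlr7 differed by 1.18 and 1.37, then 2.20 and 2.66, and Myd88 by 0.73 and 0.80, then 0.40 and 1.13. Tlr3 differed by 0.04 and 0.58, then -0.16 and 1.81. Those of Tlr1 and Tlr4, against controls below background, were 1.19 or more. Both arrays were above their control for 41% of all probes at 2 weeks and 22.4% at 4 weeks. On regular diet, 5 arrays shared a slide with a control. All 5 were above it for each of the 8 genes, as for 9.55% of all probes, and the 8 include Tlr1 and Tlr4. Leaving out 4-week replicate 2, the lowest of its group for Tlr1, Tlr2, Tlr4, Tlr7, Cd14 and Ly86, also brought 3 calls at 4 weeks, Tlr1, Tlr2 and Ly86, beside 186 of 27561 probes, and Tlr1 was tested there only because it was above background on all 3 remaining arrays. With normexp the 4-week differences were smaller for most genes, at 1.31 for Tlr2, 1.18 for Cd14, 0.55 for Tlr7 and 2.15 for Ly86, and none of the 8 genes was called in any comparison, beside 0.349% of all probes at 2 weeks, 0.189% at 4 weeks and 0.148% on regular diet.

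The order of the group means was untreated, 2 weeks, 4 weeks and regular diet for 7 of the 8 genes, the exception being Myd88, whose 4-week mean was below its 2-week mean. No step between neighbouring groups was called for a tested gene, and Tlr1 and Tlr3 were not tested among the untreated and CPZ groups. Between 4 and 2 weeks of CPZ none of the 6 tested genes was called, beside 0.0109% of all probes. None of them had an unadjusted limma p under 0.05, beside 10.6% of all probes. The largest difference was that of Ly86 (0.92 ± 0.45, adjusted p = 0.475), while Myd88 differed by -0.33 ± 0.29 (adjusted p = 0.632). Between regular diet and 4 weeks of CPZ none of 8 was called, beside 0.0036% of all probes, and the largest difference was that of Tlr1 (1.44 ± 0.70, adjusted p = 0.217). That share moved to 4.61% without untreated replicate 1, 5.57% without 4-week replicate 1, 1.25% without 4-week replicate 3, 1.16% with quantile normalization and 4.59% with median scaling, still with none of the 8. Without replicates 1 and 2 the regular diet mean was above the 4-week mean for 5 of the 8 genes, the median difference was 0.04, and again none was called. The 4 remaining arrays then read within the 4-week range for all genes but Tlr1 and Ly86, for each of which 1 of the 4 fell outside it.

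The other genes of the pathway were taken by role from a written list. Among 7 further Toll-like receptors 3 were on the array by name and 2 were tested. Tlr6, the other partner of Tlr2, was not well above background in any control and was at least 3.01-fold higher at 2 weeks (adjusted p = 0.0992). At 4 weeks the bound was 3.54-fold (adjusted p = 0.0752). On regular diet it was called (2.83 ± 0.62, adjusted p = 0.049, at least 5.38-fold), also without replicates 1 and 2 (2.01, adjusted p = 0.0357). Tlr6 entered the tests only through the groups where it is high, so its call is a description. Tlr9, a receptor for unmethylated DNA, differed by 0.08, -0.12 and -0.06 in the same comparisons. Of the co-receptors and proteins that fold, carry or hand over ligand, none of 5 was called under CPZ and none of 6 on regular diet, with 0, 1 and 3 at an unadjusted p under 0.05. Unc93b1, which carries endosomal receptors to their compartment, had the largest 4-week difference (1.15 ± 0.36, adjusted p = 0.257) and Cnpy3, a chaperone of the receptors, the smallest (0.16 ± 0.23, adjusted p = 0.886). Ly96 (MD-2), which completes the Tlr4 complex, differed by 0.51 at both CPZ times. Cd180, the receptor that Ly86 partners, was tested only with the regular diet arrays and was at least 3.39-fold higher there (adjusted p = 0.0809; without replicates 1 and 2 the fitted difference was 2.73, adjusted p = 0.0777).

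None of 15 adaptors and kinases was called at either CPZ time and none of 16 on regular diet, with median differences of 0.17, 0.04 and 0.23, and 0, 0 and 3 of them had an unadjusted limma p under 0.05. Their extremes at 4 weeks were the kinase Irak4 at 0.63 ± 0.45 (adjusted p = 0.747) and the ubiquitin ligase Traf6 at -0.78 ± 0.46 (adjusted p = 0.665). Of 6 transcription factors, Irf7, an inducer of type I interferon genes, was the only one called, on regular diet (2.28 ± 0.41, adjusted p = 0.0178), beside 0.799% of all probes. It lost that call without replicates 1 and 2 (2.28, adjusted p = 0.0541), and its 4-week difference was 1.86 ± 0.42 (adjusted p = 0.115). At 4 weeks Rela, a subunit of NF-kB, was the lowest at -0.29 ± 0.46 (adjusted p = 0.896). None of 8 inhibitors was called in any of these comparisons, and 3, 2 and 2 of them had an unadjusted p under 0.05. Socs1, a brake on cytokine signalling, was highest at 4 weeks with 0.61 ± 0.25 (adjusted p = 0.434), and Nfkbia, which holds NF-kB in the cytoplasm, was lowest with -0.48 ± 0.45 (adjusted p = 0.825). None of 8 endogenous ligands was called either (1 at an unadjusted p under 0.05 in each comparison), and at 4 weeks they ran from the matrix protein Vcan (-0.63 ± 0.44, adjusted p = 0.747) to Fn1 (1.95 ± 0.76, adjusted p = 0.400).

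Of the pathway lists, that of cytokine and chemokine targets held the calls under CPZ. Of 5 tested, 3 were called at 2 weeks, Il1b, Ccl3 and Cxcl10, beside 0.193% of all probes, and 2 at 4 weeks, Ccl3 and Cxcl10, beside 0.164%. No probe of the array was called at either time with the replicate block or the test named in the study's methods, at 2 weeks in a fit of only those 2 groups, or at 4 weeks without 4-week replicate 1, 3 or 4 or without 2-week replicate 3, so these calls are lost there. Il1b and Ccl3 were above background in no control and entered the tests only through the groups where they are high, so their calls are descriptions, while Cxcl10 and Ccl5 were above background on all controls. Ccl3, a chemokine for myeloid cells, was at least 25.1-fold higher at 2 weeks (adjusted p = 0.0326), at least 34.6-fold at 4 weeks (adjusted p = 0.0293) and at least 62.6-fold on regular diet (adjusted p = 0.00549). Cxcl10, an interferon-induced chemokine, rose by 5.68 ± 0.73, 4.59 ± 0.68 and 5.04 ± 0.56 in the same order (adjusted p = 0.030, 0.0493 and 0.00261). Il1b was at least 2.42-fold higher at 2 weeks (adjusted p = 0.0357). On regular diet Il1b and Ccl5 were called too, giving 4 of 5 beside 0.799% of all probes, and the same 4 were called without replicates 1 and 2. Ptgs2 was the lowest of the 5 at 4 weeks (-0.03 ± 0.55, adjusted p = 0.991). Tnf, Il6, Ifnb1 and Nos2 did not pass the filter on dim probes.

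**Figure D3:**
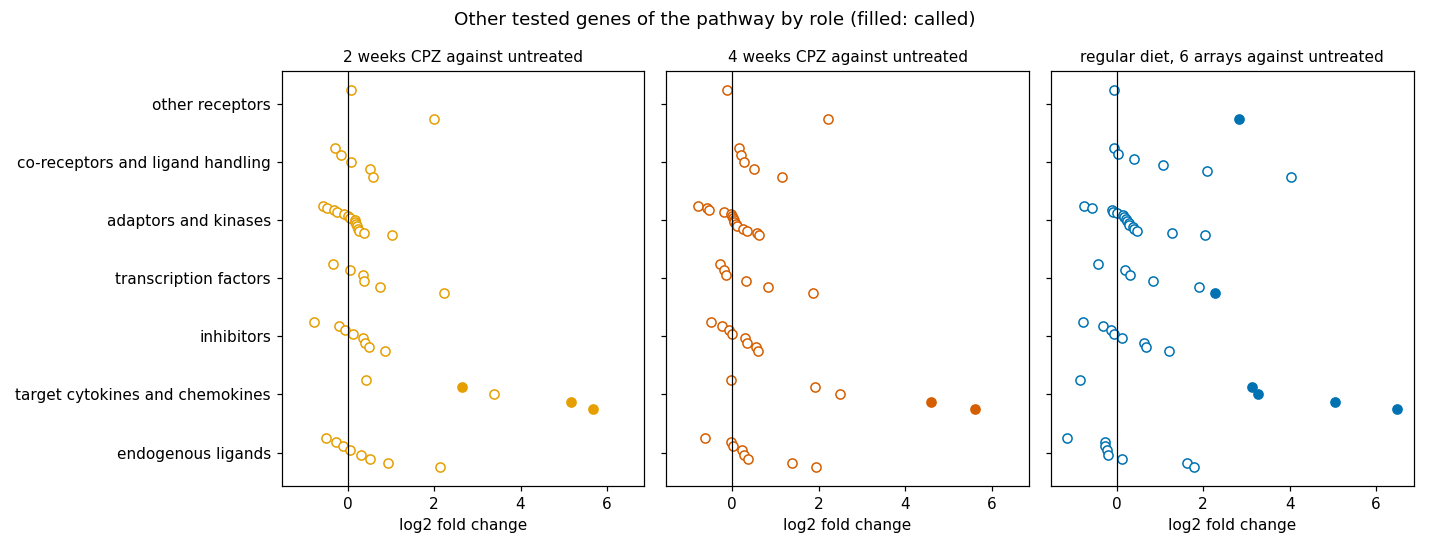
Log2 fold change (horizontal axis) of every tested gene of the pathway other than the 8 described above, 1 circle per gene, by role (rows), for 2 weeks of CPZ, 4 weeks of CPZ and regular diet, each against untreated. Filled circles were called, and they lie in the target cytokines and chemokines, with Tlr6 and Irf7 added on regular diet.

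Microglia markers moved in part with these genes. The summed level of the 12 markers was 23.4 to 48.6 (linear signal over the array's 75th percentile) in controls, 29.6 to 68.7 at 2 weeks, 52.5 to 113 at 4 weeks and 59.6 to 487 on regular diet, where replicates 1 and 2 read 405 and 487. None of the 12 was called in any of these comparisons, and 2, 7 and 7 had an unadjusted p under 0.05, as did 9.34 and 10.1% of all probes under CPZ and 2961 of 27783 on regular diet. At 2 weeks 7 of 12 were higher, with a median of 0.33, and none had every array above every control, and the 6 tested receptor genes had a median of 1.37. At 4 weeks 12 of 12 were higher with a median of 0.98, and on regular diet 12 of 12 with 1.59, or 0.73 without replicates 1 and 2. The markers ran from P2ry12 (-0.60) to C1qb (1.42) at 2 weeks and from Siglech (0) to C1qa (1.75) at 4 weeks. The part of cell number in the differences of the 8 genes was not tested.

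Markers of other immune cells were detected in part. Of the 10 monocyte and macrophage markers, Ly6c2 and Pf4 were above background on all 16 arrays, Ms4a7 on 15, F13a1 on 14, Mrc1 and Cd163 on 11 and Plac8 on 5, and Ccr2 and Clec4d on none. At 2 weeks 7 of 7 tested were higher with a median of 0.71, and 3 had an unadjusted p under 0.05, beside 9.34% of all probes. Of these, Lyve1 and Cd163 entered the test only through the 2-week arrays, so their values are descriptions. The summed level of the 10 markers was 8.57 to 14.1 in controls, 15.4 to 19.2 at 2 weeks, 9.49 to 15.1 at 4 weeks and 8.75 to 12 on regular diet. None was called under CPZ, and Ms4a7 was called on regular diet (3.75 ± 0.49, adjusted p = 0.00497), also without replicates 1 and 2 (3.34, adjusted p = 0.00972). Lyve1, a marker of border macrophages, was above background on all 3 arrays at 2 weeks and on no other array. Of the neutrophil markers Ngp, Ltf, Mmp8 and Retnlg were above background on no array, and the summed level of the 7 on the array was 0.224 to 0.519 in controls, 0.221 to 0.780 at 2 weeks, 0.235 to 0.734 at 4 weeks and 0.107 to 0.331 on regular diet. The B and T cell markers Ms4a1 and Pax5 were above background on no array, while Cd79a, Cd79b and Cd3e were on all 16, and the summed level of the 10 was 0.502 to 0.561 in controls, 0.649 to 0.776 at 2 weeks, 0.705 to 0.908 at 4 weeks and 0.746 to 1.41 on regular diet. The 8 astrocyte markers had medians of 0.51, 0.64 and 0.57 at 2 weeks, at 4 weeks and on regular diet. None was called, and 4 of 8 had an unadjusted p under 0.05 in each comparison. Their summed level was 108 to 155 in controls, 110 to 156 at 2 weeks, 108 to 185 at 4 weeks and 114 to 152 on regular diet. That of 6 choroid plexus markers was 2.29 to 12, 2.15 to 13.2, 0.981 to 47.8 and 1.05 to 35.4 in the same order. The part of these cells in the results was not tested.

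**Figure D4:**
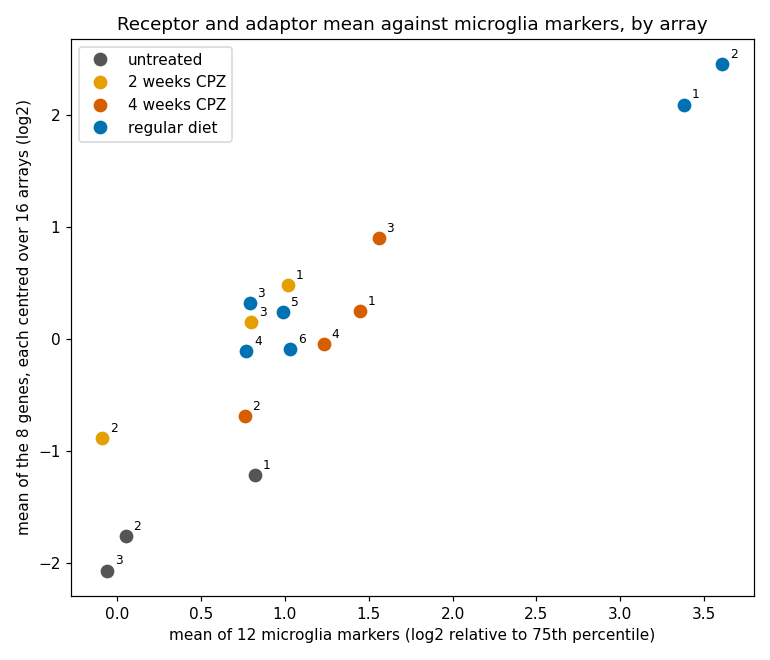
Mean of the 8 genes, each centred over the 16 arrays (log2, vertical axis), against the mean of 12 microglia markers (log2 relative to the 75th percentile, horizontal axis), 1 numbered point per array. Regular diet replicates 1 and 2 lie far to the upper right, and the 3 untreated arrays lie lowest.

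Array by array, the mean of the 8 genes, each centred over the 16 arrays, was -1.22, -1.76 and -2.07 in the controls, 0.48, -0.89 and 0.15 at 2 weeks, 0.25, -0.69, 0.90 and -0.05 at 4 weeks, and 2.09, 2.45, 0.32, -0.11, 0.24 and -0.09 on regular diet. This mean includes Tlr1 and Tlr4, which were below background in every control, and Tlr3. Across the 16 arrays, which share groups and the pair of high arrays, the 7 genes other than Tlr3 followed each other with Pearson r between 0.85 and 0.98. Tlr3 followed them with r between 0.50 and 0.72. The genes outside the list whose pattern was most like the mean of the 8 were Fcgr1, Cd84, Myo1f, C1qb and Renbp, each with r = 0.99 over 16 arrays (Spearman's rho 0.88 to 0.96). The closest gene to each was Tmem106a for Tlr1 (r = 0.99), Tlr6 for Tlr2 (0.99), Slc12a4 for Tlr3 (0.95), Ctsc for Tlr4 (0.98), Anxa3 for Tlr7 (0.98), Bcl2a1b for Cd14 (0.98), Cebpa for Myd88 (0.97) and Rac2 for Ly86, with the highest r of these.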

How the data were processed

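Agilent 4x44K arrays with 1 colour measured corpus callosum RNA of 16 samples. The authors deposited spot intensity from Agilent Feature Extraction (version 11.0.1.1 per the submitters' processing notes), background-subtracted but not scaled between arrays. The authors also deposited a processed table of log2 values, scaled to the 75th percentile and set to the median of the controls, which was found from the values.

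Columns of the processed table were matched to scanner values over 21974 probes (r = 1.0, next array at most 0.883), and arrays were assigned through them. The control median was 0 for 100% of probes with the 3 arrays so assigned, against at most 52.1% for any other set of 3. Control and outlier spots were dropped, spots of a probe averaged, and log2 of the 75th percentile subtracted. Accessions were named through RefSeq (GRCm38.p6) for 27479 probes (66.7%). The filter on dim probes required all arrays of some group in the fit to be well above background. The brightest kept probe stands for a gene. The number of arrays limits the precision.

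limma 3.58.1 (R 4.3.3, statmod 1.5.0) was fitted to the 10 untreated and CPZ arrays (27503 probes), and to all 16 (27783 probes) for regular diet, and was tested on simulated data. Deviations of replicates with the same number correlated at r -0.81 to 0.21 over 9 pairs of untreated and CPZ arrays and -0.32 to 0.34 over 10 pairs with regular diet arrays, not above 0.1 in every pair, so no block was used. An "at least" fold sets the bright group's mean against the higher of the dim probe's signal and the lowest signal well above background. Such a fold carries no sampling error and holds only for the background correction of the main processing. Alternatives covered scaling, normexp on the median signal (no mean signal was in the files used here), filters, slide, replicate block, arrays left out, the methods' ANOVA with Tukey's test, the processed table and the recorded assignment. Regular diet without replicates 1 and 2, and a filter on all 16 arrays, were added after seeing the data.

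The text names every probe of the 8 genes, the called genes and the largest rise and fall of each pathway list, and the genes most alike over arrays. Ly96, Cd180 and the marker genes given with values were named after their values were seen. Members and lists were chosen with earlier results of these data known.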

Additional observations from a re-analysis of the deposited data

Results flagged for a closer look

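Of 16 sets of arrays checked (8 genes in the 4-week and the regular diet group), 1 held an array far from the rest. Myd88 on 4 weeks of CPZ replicate 3 read -0.19, and the other 3 arrays read -1.07 to -1.01, so the gap to the nearest was 0.93 of the range. How often chance gives such a gap was not tested, and the 16 sets share arrays and hold genes that follow each other. The same array was also the highest of its group for Tlr2, Tlr3, Tlr4, Tlr7, Cd14 and Ly86. It had the highest summed microglia markers of its group (113, where the others had 52.5 to 92.1). It also had the highest summed astrocyte markers of the 16 arrays (185, where the others of its group had 108 to 181) and the highest summed choroid plexus markers (47.8, others 0.981 to 15). Their part was not tested.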

How the results depend on the processing

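Members called under each setting are counted here, with the percentage of all probes called in brackets, against 0 at 2 weeks, 0 at 4 weeks and 3 on regular diet. At 4 weeks, blocking on slide gave 5 as a fixed term (1.73%) and 3 as a random term (1.52%), and a fit of only the 2 groups compared 2 (0.906%). At 2 weeks the random term gave 1 (1.13%). On regular diet, normexp (0.148%), the replicate block (0.0864%), ANOVA with Tukey's test (0.0469%) and the recorded assignment (0%) each gave 0, and a fit of only the 2 groups compared gave 1 (0.592%). Also on regular diet, 2 were called with no filter on dim probes (0.442%), median scaling (0.461%), the slide as a fixed term (0.954%) and quantile normalization (0.587%), each without Cd14, and 2 with a filter on every array (0.523%), without Tlr1. Leaving out 1 array at a time gave 0 to 0 at 2 weeks, 0 to 3 at 4 weeks and 0 to 3 on regular diet, and turned no direction. Pairing by the replicate block changed no other call. Between regular diet and 4 weeks of CPZ, leaving out regular diet replicates 1 and 2 turned Tlr7, Cd14 and Ly86. Their regular diet means were then -1.62, -0.08 and 3.41, below the 4-week means of -1.42, 0.08 and 4.04. Among the differences from untreated, directions turned only as follows. With normexp Tlr3 on regular diet was -0.31. With the recorded assignment Myd88 was -0.09 at 2 weeks, Tlr2 -0.29, Tlr4 -0.17, Cd14 -0.15 and Myd88 -0.27 at 4 weeks, and Tlr3 -0.57 and Myd88 -0.26 on regular diet. Fewer samples enter the fits that leave arrays out, and for the other settings the cause was not tested. The Cd14 call on regular diet (adjusted p = 0.049) was lost under more settings than those of Tlr1 and Tlr2. Dim probes, those of Tlr1, Tlr3 and Tlr4, limit what can be measured in untreated tissue.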
